A study of Homo sapiens with 2 samples.

Results

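A set of 10 members of the Krüppel-like factor (KLF) family were examined in bulk RNA sequencing of KYSE30, an established human esophageal squamous cell carcinoma line carrying luciferase and GFP reporters. The members were KLF2, KLF3, KLF4, KLF6, KLF7, KLF9, KLF10, KLF11, KLF13 and KLF16, chosen by gene symbol, and they are 10 of 60725 genes in the deposited table. Cultured cells were stained for CD44, a surface receptor for hyaluronan, and the cells with the strongest and the weakest staining were sorted as the CD44 high and the CD44 low fraction. Both fractions came from the same unperturbed line, and each gave 1 poly(A) library. The study sorted on CD44 to enrich for cells with a metastasis-initiating signature, and the comparison here asks how the KLF mRNAs differ between the fractions. With 1 library per group no test between groups is possible. Every interval below covers counting error only, not the spread between cultures or sorts.

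KLF proteins are transcription factors that bind CACCC and GC-rich elements through a block of zinc fingers at the carboxyl end, while their amino-terminal parts differ and recruit different cofactors. Distinct groups are told apart by these cofactors. KLF3, KLF8 and KLF12 repress transcription through the corepressor CtBP. KLF1, KLF2, KLF4, KLF5, KLF6 and KLF7 act mostly as activators, and KLF9, KLF10, KLF11, KLF13, KLF14 and KLF16 bind the corepressor SIN3A. In stratified squamous epithelium KLF4 promotes differentiation and KLF5 marks proliferating basal cells. KLF2, KLF4, KLF6 and KLF10 are also known as genes that respond rapidly to serum, growth factors or flow.

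The shared part of the members lies in the DNA-binding region. By GENCODE release 44, the coding sequence of a full-length transcript of each member (for KLF11 ENST00000305883, a minor form here) held 3 zinc fingers of the C2H2 type, spanning 243 bases from the first cysteine to the last histidine. Over these bases KLF6 and KLF7 had the highest identity (83.5%), KLF2 and KLF4 had 78.6%, and the lowest values were between KLF3 and both KLF9 and KLF16 (55.1%). The longest identical run of bases in any pair was 26, in KLF6 and KLF7. All 10 members had whole expected counts in both libraries. The stretch across the first linker, which joins finger 1 to finger 2, is shown for KLF2 and KLF6, whose transcripts described below part at or next to it, and for KLF4, KLF3 and KLF16 for comparison. Capitals mark the 15 bases of the linker, and the lower case bases on either side belong to the fingers.
KLF2: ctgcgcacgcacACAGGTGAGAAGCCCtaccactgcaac
KLF4: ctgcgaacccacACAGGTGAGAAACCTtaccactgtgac
KLF6: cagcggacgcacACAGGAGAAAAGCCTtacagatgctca
KLF3: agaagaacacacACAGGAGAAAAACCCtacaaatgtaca
KLF16: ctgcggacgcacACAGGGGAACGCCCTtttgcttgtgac
These are messenger sequences joined over an intron (GRCh38, KLF2 within chr19:16326017-16326878 on the plus strand, KLF4 within chr9:107485904-107487043 and KLF6 within chr10:3780207-3781656 on the minus strand, KLF3 within chr4:38694891-38697104 on the plus strand, KLF16 within chr19:1854738-1863056 on the minus strand). In each of the 10 members that intron sat after the same 4 bases of the linker. Its length ran from 757 bases in KLF10 to 44220 in KLF13.

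Library depth was 21633236 expected counts for CD44 high and 22859583 for CD44 low. CD44 itself was 2.35-fold higher in the CD44 high library (22819 against 9727 counts, 95% counting interval 2.29 to 2.41), in the direction of the sort. Transcripts of the mitochondrial genome made up 7.50% (CD44 high) and 14.0% (CD44 low) of all counts, so KLF ratios are also given below on a scale without them. Of 8 epithelial and squamous markers, 7 had at least 20 counts in a library, with a summed level of 5938 TPM (CD44 high) against 5106 TPM (CD44 low), where TPM is a unit that corrects for transcript length and library size. Of these 7, 4 were lower (TP63, KRT14, KRT19 and CDH1) and 3 higher (KRT8, KRT18 and EPCAM) beyond counting error, and their median was -0.46 in log2 counts (TPM scale -0.32). KRT8 (2246 against 1664 TPM) and KRT18 (2032 against 1273 TPM) carried the higher sum. Among basal cell markers TP63 had 2551 and 5287 counts, KRT14 28.38 and 81.85 and KRT5 0 and 8. Their part in the KLF ratios was not tested. Since each library is a bulk of many cells, fewer cells with a transcript and less of it per cell cannot be told apart. Several KLF genes are abundant in blood vessels and leukocytes, so markers of those cells were checked. Among leukocyte markers, CD3E was at 0 in both libraries, PTPRC and LYZ had 0 and 1 count, CD14 had 9 and 2, and CD68, which epithelial cells also express, had 122.52 and 58.62. The 4 endothelial markers had at most 13 counts, with KDR at 0 in both libraries, and sums of 0.38 and 0.06 TPM. Among 5 fibroblast and pericyte markers COL1A1 had 175 and 292 counts, ACTA2 had 17 and 52, PDGFRB had 0 and 1, and COL1A2 and DCN were at 0 in both.

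Among the 10 members mRNA abundance was carried by a few genes, and KLF6, KLF4, KLF10 and KLF3 led in both fractions. KLF5, which is outside this set, had 46.15 TPM in the CD44 high and 62.69 TPM in the CD44 low library. On the length-scaled TPM scale the 10 members summed to 332.03 in the CD44 high and 337.54 in the CD44 low library. KLF6 alone made up 47.7% and 42.9% of that sum, and 41.5% and 35.6% when the other KLF genes were included. Among the members KLF6 was followed by KLF4, KLF10 and KLF3, between 28.69 and 59.71 TPM. KLF10 stood above KLF4 in the CD44 high library (53.89 against 46.52 TPM) and below it in CD44 low cells (54.69 against 59.71 TPM). KLF2, KLF7, KLF11, KLF13 and KLF16 lay between 4.81 and 14.54 TPM. KLF2 stood above KLF16, KLF7 and KLF13 among CD44 low cells and below all of them among CD44 high cells. KLF9 was close to absent, at 0.37 and 0.27 TPM, and was the only member below 50 counts in both libraries.

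**Figure D1:**
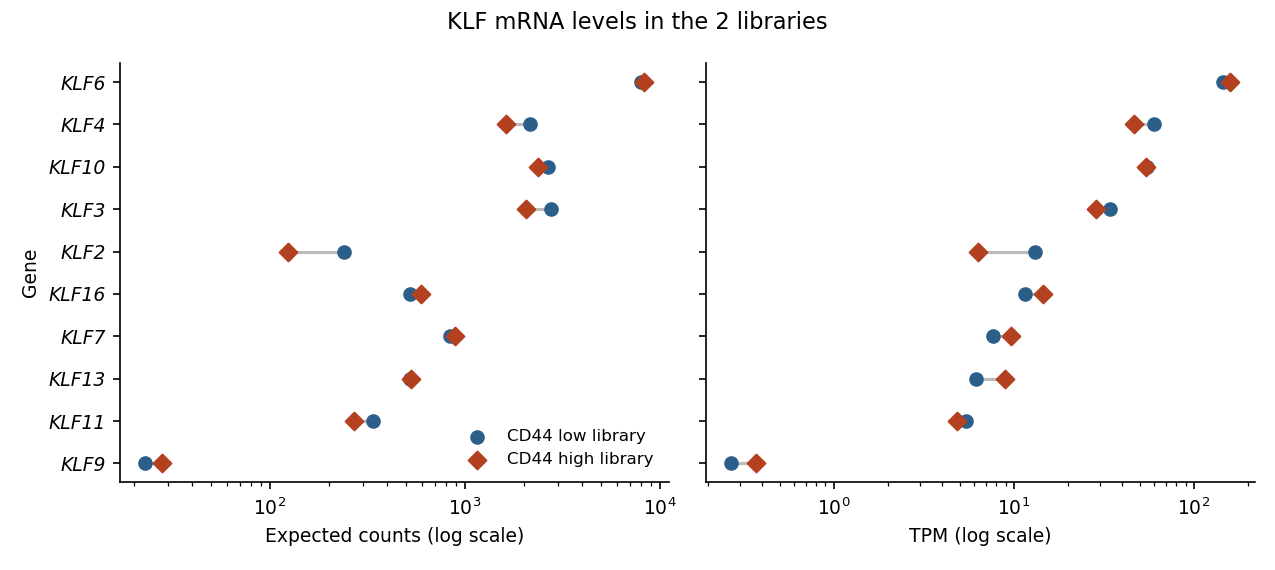
Levels of the 10 KLF genes in the CD44 low (blue circles) and CD44 high (red diamonds) library, in expected counts (left) and in TPM (right), both on log axes, ordered by TPM in the CD44 low library. KLF6 lies highest in both panels, KLF9 lowest, and the widest gap on the count axis is that of KLF2 (124 against 240 counts).

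Of the members, 5 were lower in the CD44 high library beyond counting error, 2 were slightly higher, and none differed by 2-fold in the scaled counts. The lower ones were KLF2, KLF3, KLF4, KLF10 and KLF11, and the higher ones KLF6 and KLF16. These are 5 and 2 of the 9 members that reached 50 counts, the depth required for a call. Of the 12371 genes at that depth, 31.0% were lower and 32.4% higher by the same rule. Of the 4 members with 1000 counts or more (KLF3, KLF4, KLF6 and KLF10), 3 were lower and 1 higher, where 33.5% of genes of such depth were lower and 43.7% higher. On the TPM scale 3 members were lower (KLF2, KLF3 and KLF4) and 4 higher (KLF6, KLF7, KLF13 and KLF16), beside 18.7% and 51.0% of all genes. The median of all genes was 0.17 on that scale. These TPM intervals carry the counting error of the whole gene, not that of its single transcripts. The TPM gap of KLF13 came mostly from a transcript with 14.29 against 6.40 expected counts, so its call on that scale is not secure. Part of the TPM gap of KLF7 came from a transcript with 6.95 against 1.67 expected counts (1.22 against 0.27 TPM), so its call there is not secure either. In the scaled counts 4.21% of the 12371 genes were at least 2-fold lower and 1.24% at least 2-fold higher. The median log2 ratio of the 10 members was -0.07, against 0.01 over all genes, and 5% and 95% of all genes lay below -0.92 and 0.58.

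**Figure D2:**
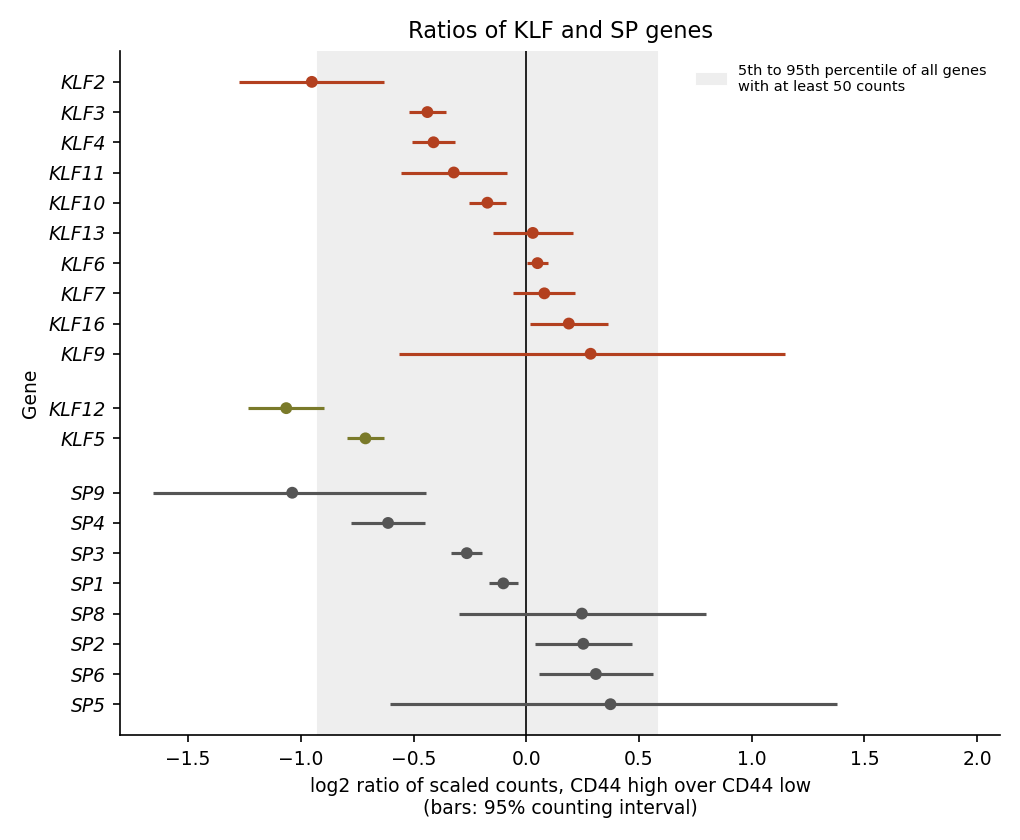
Log2 ratio (CD44 high over CD44 low, scaled counts) of the KLF members (red, top), KLF12 and KLF5 (olive, middle) and SP genes (grey, bottom), with 95% counting intervals as bars and the central 90% of all genes as a grey band. KLF2 (-0.95), KLF12 (-1.06) and SP9 (-1.03) lie at or beyond the lower edge of the band at -0.92.

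Among the activator group the members split. KLF2, a factor of vascular quiescence and lymphocyte trafficking, had the ratio furthest from equality of the 10. It had 124 counts (6.36 TPM) against 240 (13.10 TPM), 1.93-fold lower (counting interval 1.55 to 2.42). Its log2 ratio of -0.95 was at percentile 4.71 of all genes with at least 50 counts. KLF4, a factor of epithelial differentiation and of reprogramming to pluripotency, had 1620 counts (46.52 TPM) against 2157 (59.71 TPM), and was 1.33-fold lower (1.25 to 1.42), at percentile 15.9. For both genes the interval stayed below equality on each of 5 scalings.

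KLF6, the most abundant member, was nearly equal. It had 8260 counts (158.28 TPM) against 7988 (144.72 TPM), a ratio of 1.04 (1.004 to 1.07). With total counts of the nuclear genes as the scale the interval of KLF6 spanned equality, from 0.985 to 1.05. KLF7, which acts in neuronal growth, had 887 counts (9.66 TPM) against 840 (7.64 TPM), and its interval of 0.961 to 1.16 spanned equality. Scaled by total counts the ratio of KLF7 was 1.12 (1.01 to 1.23), above equality. On the TPM scale KLF7 was 1.26 times the CD44 low level.

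The CtBP-recruiting repressor KLF3, known for its part in erythroid and fat cells, had 2047 counts (28.69 TPM) against 2777 (34.31 TPM). It was 1.36-fold lower (1.28 to 1.44), at percentile 14.7, and lower beyond counting error on all 5 scalings. An antisense gene, KLF3-AS1, overlaps its start and had 5 and 13 counts, too few to set the KLF3 values whichever strand was counted.

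In the SIN3A-binding group the ratios ran in both directions and stayed within 1.25-fold in every member with at least 50 counts. KLF10, induced early by TGF-beta, had 2374 counts (53.89 TPM) against 2678 (54.69 TPM), 1.13-fold lower (1.07 to 1.19). On the TPM scale the KLF10 interval, from 0.932 to 1.04, spanned equality. KLF11, its closest relative in the finger region (78.2% identity), had 271 counts (4.81 TPM) against 339 (5.45 TPM) and was 1.25-fold lower (1.06 to 1.47). Its interval on the TPM scale, 0.749 to 1.04, also spanned equality.

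KLF16 had 592 counts (14.54 TPM) against 520 (11.50 TPM), a ratio of 1.14 (1.01 to 1.28), and the interval reached 0.992 when nuclear genes alone set the scale. KLF13, a regulator of lymphocyte genes, had 531 counts against 521, a ratio of 1.02 (0.902 to 1.15). Its TPM values, 8.91 against 6.15, stood further apart, and the transcripts behind that gap are given below. KLF9, a gene responsive to thyroid hormone and glucocorticoids, had 28 counts against 23, and its interval of 0.677 to 2.22 shows that no difference was detectable at this depth.

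**Figure D3:**
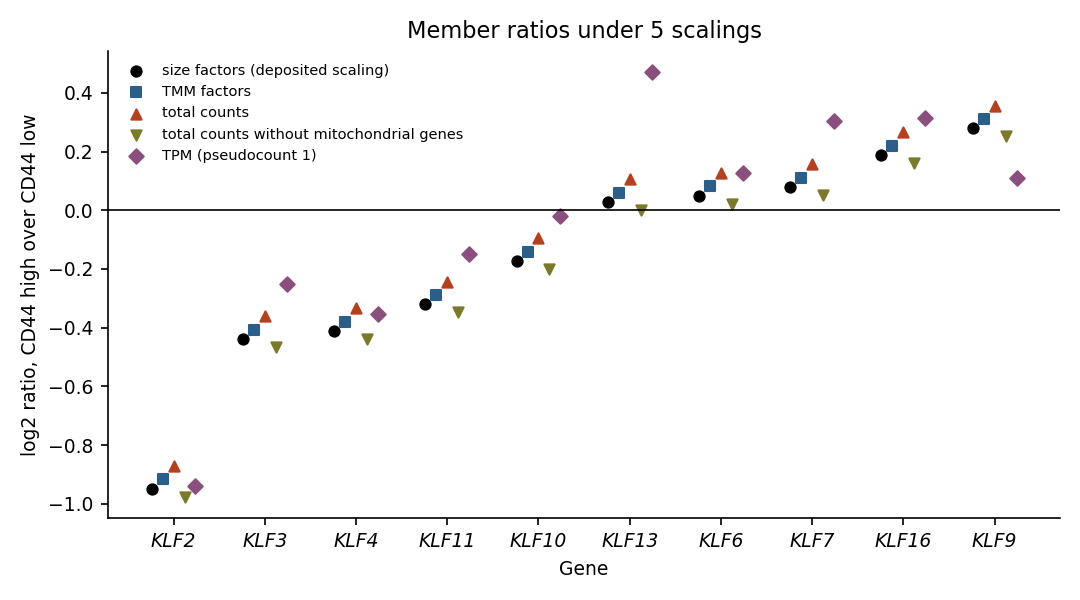
Log2 ratio of each KLF member under 5 scalings of the same 2 libraries, ordered by the ratio under the deposited size factors (black). KLF2, KLF3, KLF4, KLF11 and KLF10 lie below 0 under every scaling and the other members above it, with KLF13 moving most, from 0.03 in counts to 0.47 in TPM.

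Among the remaining KLF genes, KLF12 and KLF5 reached 50 counts and both were lower. KLF12, a CtBP-recruiting repressor of the same group as KLF3, had 426 counts (2.70 TPM) in the CD44 high library against 892 (5.30 TPM), 2.09-fold lower (1.86 to 2.35). KLF5, the basal epithelial factor, had 1896 counts (46.15 TPM) against 3112 (62.69 TPM), 1.64-fold lower (1.55 to 1.74). The other 6 genes (KLF1, KLF8, KLF14, KLF15, KLF17 and KLF18) had at most 16 counts. The related SP factors, which use the same type of finger block, ran in both directions. Of 8 with at least 20 counts, 4 were lower and 2 higher beyond counting error, where 31.0% and 32.4% of all genes with at least 50 counts were. SP5, with 22 and 17 counts, was below the depth for a call. SP9 was 2.05-fold lower on 36 against 74 counts (1.36 to 3.15). SP4 was 1.53-fold lower (499 against 764 counts) but level on the TPM scale (8.32 against 8.39). SP3 and SP1, the abundant and widely expressed members, had log2 ratios of -0.26 and -0.10, and SP1 turned to 0.10 on the TPM scale. SP2 and SP6 were 1.19-fold and 1.24-fold higher, and the intervals of SP5 and SP8 spanned equality.

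Transcripts were then compared, because several KLF genes make splice forms with different protein content. The transcript values are estimates that RSEM makes by dividing reads among overlapping isoforms. They carry no interval here, and exon structures were read from GENCODE release 44 by transcript identifier. Among 8880 genes with several transcripts and at least 200 counts in both libraries, 35.0% had a transcript whose share of the TPM of its gene differed by at least 10 percentage points between the libraries, and 3.83% had one that differed by at least 25 points. Of 8 members in that set, 5 reached 10 points (KLF4, KLF6, KLF7, KLF11 and KLF13) and 2 reached 25 points (KLF4 and KLF7). KLF2, with fewer counts, reached 13.6 points, or 6.30 points when shares were taken of expected counts.

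KLF4 had the opposite direction in its full-length mRNA and in its total. The 5-exon transcript ENST00000374672, which encodes 479 residues, had 15.39 TPM in the CD44 high and 3.25 TPM in the CD44 low library, 4.74-fold higher, on 608.63 against 142.77 expected counts. Its share of KLF4 TPM was 33.1% against 5.44%. ENST00000610832 skips exon 3 (973 bases, chr9:107487295-107488267) and encodes 145 residues that still hold the 3 fingers. Its coding sequence has 435 bases against 1437, so more coding sequence than exon 3 is left out, and the fingers stay in frame. It had 5.70 TPM against 16.30 TPM, 2.86-fold lower, and its share was 12.3% against 27.3%. The annotated retained-intron transcripts ENST00000497048 (18.03 against 27.40 TPM) and ENST00000493306 (6.71 against 12.31 TPM) were also lower. Retained-intron forms together made up 54.7% of KLF4 TPM among CD44 high cells and 67.3% among CD44 low cells.

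KLF6 and KLF2 likewise have transcripts that leave out an exon of the coding region. In KLF6 the full-length transcript ENST00000497571 had 97.26 TPM against 68.96, a share of 61.4% against 47.7%. ENST00000542957 skips exon 3 (124 bases, chr10:3780106-3780229), so that 1 of 3 fingers remains, and had 12.54 TPM against 24.66, a share of 7.92% against 17.0%. ENST00000469435, whose 3′ end lies before exon 3, had 26.55 against 27.97 TPM. The forms with no defined coding sequence were ENST00000492125 (20.26 against 22.22 TPM) and ENST00000380946 (1.67 against 0.55 TPM). They rest on 72.60 against 87.22 and on 13.81 against 4.99 expected counts. In KLF2 the full-length ENST00000248071 had 4.04 TPM against 6.54, and ENST00000592003, which skips exon 2 (817 bases, chr19:16325216-16326032) and encodes no complete finger, had 2.32 TPM against 6.56. The latter rests on 12.87 and 40.03 expected counts.

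The junctions at which these forms part are shown because reads across them, like reads within the skipped exons, help to tell the forms apart. Lower case marks the last 15 bases of the exon before the junction and capitals the first 15 bases of the exon after it, all within coding sequence.
KLF4 full length, exon 2 to exon 3: ggtgccccgaataacCGCTGGCGGGAGGAG
KLF4 without exon 3: ggtgccccgaataacCTCATGCCACCCGGT
KLF6 full length, exon 2 to exon 3: agcggacgcacacagGAGAAAAGCCTTACA
KLF6 without exon 3: agcggacgcacacagGTGTTTTTCCAGGTC
KLF2 full length, exon 1 to exon 2: cgcggcctgcaggagCGCTGGCCGCGCGCC
KLF2 without exon 2: cgcggcctgcaggagGTGAGAAGCCCTACC
The KLF6 junction falls inside the first linker printed above. The skipped exon of KLF6 has a length that is no multiple of the codon, so the sequence after it is read in another frame. In KLF2 the capitals of the skipped form are the later part of its own linker and the first bases of finger 2, joined to exon 1 and likewise read in another frame.

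**Figure D4:**
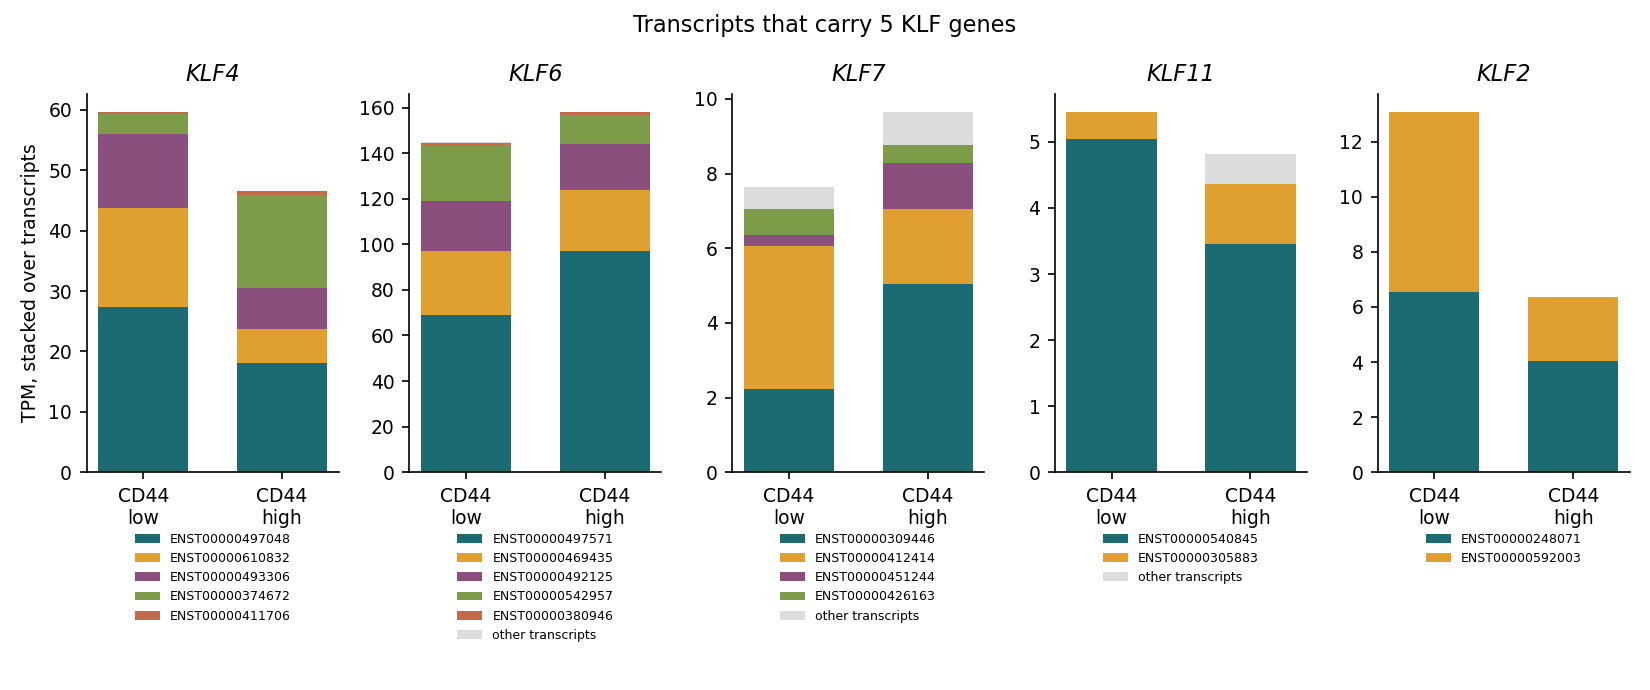
Stacked TPM of the transcripts of KLF4, KLF6, KLF7, KLF11 and KLF2 in each library, with up to 5 transcripts named per gene and the rest in light grey. In KLF4 the full-length ENST00000374672 (green) grows from 3.25 to 15.39 TPM from the CD44 low to the CD44 high library while the bar as a whole is shorter.

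KLF7 and KLF11 differed between transcripts that begin at different positions. In KLF7, ENST00000309446 had 5.05 TPM in the CD44 high and 2.24 TPM in the CD44 low library, a share of 52.3% against 29.3%. ENST00000412414, which starts 31808 bases further into the gene by its deposited coordinates, had 2.01 against 3.83 TPM, a share of 20.8% against 50.1%. It is absent from GENCODE release 44, so its exon structure was not read. Its start is that of a RefSeq start site, and ENST00000309446 starts within 3 bases of another. These forms ran in opposite directions while the interval of the KLF7 total in scaled counts spanned equality. ENST00000451244, annotated as a target of nonsense-mediated decay, had 1.22 against 0.27 TPM on only 6.95 against 1.67 expected counts. Its share differed by 9.10 points of TPM but by 0.58 points of expected counts. In KLF11, ENST00000540845 was the main form, with 3.45 against 5.05 TPM, and its share was 71.7% against 92.5%. The remainder was ENST00000305883 (0.91 against 0.41 TPM) and ENST00000535335 (0.45 against 0 TPM), both under 1 TPM.

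The gap between counts and TPM in KLF13 came from a short transcript. The long coding transcript ENST00000307145 had 516.71 against 514.60 expected counts and 5.15 against 4.62 TPM. ENST00000558673, a fragment with no defined coding sequence, had 14.29 against 6.40 expected counts, which amounted to 3.76 against 1.54 TPM. Its share of TPM thus differed by 17.2 points and its share of expected counts by 1.46 points. KLF3, KLF10 and KLF16 were each carried by a single transcript at 94.3% or more of TPM in both libraries, beside ENST00000514033 of KLF3 (1.20 against 1.15 TPM) and ENST00000395884 of KLF10 (1.28 against 1.52 TPM).

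Promoter sequence was examined for motifs of factors known to act on KLF genes. RefSeq promoters (GRCh38.p14) were matched by symbol for 8 of the members, with 12 start sites, and the 250 bases before each start were searched on both strands. The family's own core element CACCC was present in 4 of the 12 windows (KLF7, KLF11 and KLF13), against 54.7% of 35116 windows over all genes. The GC box GGGCGG was present in 8 of 12, against 42.6%. A MEF2 element, the site through which the kinase ERK5 is known to induce KLF2, was found in the KLF2 window alone among the members, against 0.515% of all windows. It began 120 bases before the start. The KLF2 window, of the member with the ratio furthest from equality, is shown with the MEF2 element in capitals (chr19:16324576-16324825, plus strand).
KLF2 promoter: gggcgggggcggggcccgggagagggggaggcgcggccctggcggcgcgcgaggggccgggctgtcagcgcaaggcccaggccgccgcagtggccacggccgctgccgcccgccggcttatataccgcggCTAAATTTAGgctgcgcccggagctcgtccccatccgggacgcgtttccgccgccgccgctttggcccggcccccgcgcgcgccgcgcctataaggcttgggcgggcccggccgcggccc
No CACCC element was found in this window, and GGGCGG was found 4 times, with a GC content of 80.0%. A cyclic AMP element (TGACGTCA) was found in 1 KLF11 window, against 1.65% of all windows. An SRF CArG box was found in 1 KLF7 window, against 1.16%, and CCAAT in 5 of 12, against 32.0%. Neither TATAAA (10.7% of all windows) nor the AP-1 element TGANTCA (6.57%) was found in any of the 12. The KLF11 match to TGACGTCA overlaps a CACCC match, and in KLF13 a CACCC match overlaps the end of a GC box.

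Partners, regulators and targets of KLF proteins were mostly within a narrow range. Of 9 subunits of the SIN3-HDAC complex, 2 were lower and 3 higher beyond counting error, and the median log2 ratio was 0.05 (TPM scale 0.26). SAP30, a subunit that stabilises the complex, was the only one past 2-fold (171 against 84 counts, 2.04-fold higher, 1.56 to 2.68). Of 6 genes of the CtBP complex none was lower and 2 were higher, KDM1A (a histone demethylase, 1.12-fold) and CTBP2 (1.10-fold), with a median of 0.08 (TPM scale 0.27). Of 4 acetyltransferase coactivators 2 were lower and 1 higher, and KAT2B had a log2 ratio of -0.55 and KAT2A of 0.41.

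Of 11 genes of the MEK5-ERK5-MEF2 and SRF routes that induce KLF2 and KLF4, 4 were lower and 2 higher, and the median was 0.02 (TPM scale 0.15). The widest were MAP3K2, an upstream kinase (-0.46 in counts, level in TPM at 18.86 against 18.84), and MEF2C (95 against 128 counts, -0.43, but 0.05 on the TPM scale). Of 8 ubiquitin ligases reported to act on KLF proteins 4 were lower and 4 higher, the median of -0.05 turned to 0.22 on the TPM scale, with FBXO32 at -0.41 and BTRC at -0.34.

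Lists of stimuli and of targets differed in direction. Of 7 glucocorticoid-responsive genes, 4 were lower and 1 higher, with a median of -0.08 (but 0.08 in TPM), and TSC22D3, which encodes the anti-inflammatory protein GILZ, was 2.65-fold lower (67 against 178 counts, 1.99 to 3.57). Of 11 circadian clock genes 5 were lower and 1 higher, with a median of -0.20 (TPM scale -0.04), and the period genes PER2 and PER3 were widest at -0.62 and -0.52. Of 8 early TGF-beta response genes 4 were lower and 2 higher, with a median of -0.33 (TPM scale -0.13), and the inhibitory SMAD genes SMAD6 and SMAD7 had -0.95 and -0.78. Of 5 measured epithelial genes reported as targets of KLF4 or KLF6, 3 were lower and 2 higher, with a median of -0.46 (TPM scale -0.32), led by the keratin KRT19 (-0.67) and the cell cycle inhibitor CDKN1A (-0.63). This list shares genes with the epithelial and squamous markers above, KRT19 among them, and has the same median, so it is not a separate result. Of the endothelial and lymphoid genes that KLF2 controls, NOS3, S1PR1 and CCR7 had at most 7 counts. The 2 measured genes of this list gave 0 lower and 1 higher beyond counting error, with a median of 0.16 (TPM scale 0.29). The surface thrombin receptor THBD, 1 of these 2, had 104 against 88 counts, and its interval spanned equality. The gene called higher is not reported here. None of these shares was read as particular to KLF genes, since 31.0% of all genes were lower and 32.4% higher.

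**Figure D5:**
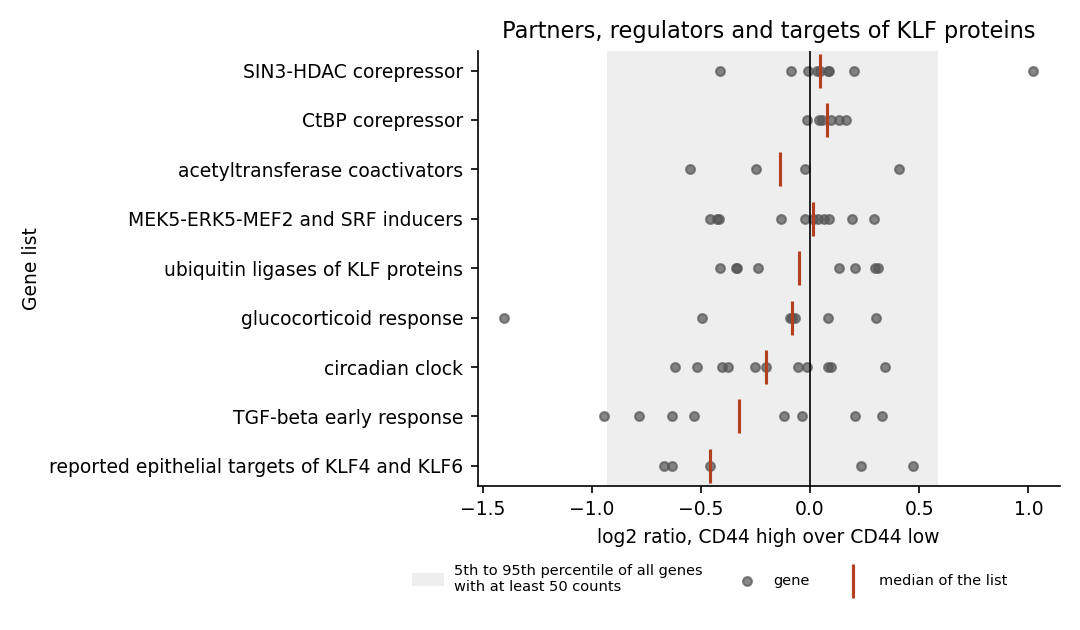
Log2 ratio (CD44 high over CD44 low) of each measured gene in 9 lists of KLF partners, regulators and targets, with the list median as a red bar and the central 90% of all genes as a grey band. SAP30 (1.02) lies beyond the band on the right, and TSC22D3 (-1.40) and SMAD6 (-0.95) on the left.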

How the data were processed

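The authors mapped reads to GRCh38 with STAR, quantified them with RSEM and compared the libraries with EBSeq, whose fold change and FDR columns were not used. The authors deposited, per gene and per transcript, expected counts divided by a size factor, and TPM. The sources used here do not give the GENCODE release, the strand setting or any collapsing of molecular identifiers. Unscaled expected counts were recovered from the value of 1 count in each column. Ratios are of scaled counts, log2 ratios add a prior count of 0.5 (TPM: a pseudocount of 1), and 95% intervals are exact conditional binomial (Clopper-Pearson) on rounded counts. Calls needed 50 counts in a library, and list genes 20, so list genes between 20 and 50 counts could not be called. On the TPM scale the counting interval was moved to the TPM ratio. The ratio and interval code was tested on simulated data.

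The members and gene lists were chosen with earlier results of these data known. By rule, the text names all members, their transcripts with at least 1 TPM, KLF and SP genes with at least 20 counts, and from each list the genes past 2-fold or else the 2 widest. Some list genes are not reported here. The KLF11 forms under 1 TPM and KLF2 targets under 50 counts are named besides. CTBP2, KRT8, KRT14, KRT18, KRT19 and CD68 have fractional counts and share reads with other genes. Alternatives were TMM factors (edgeR 4.0.16, R 4.3.3), total counts with and without mitochondrial genes, TPM, a prior count of 5, other thresholds and count shares of transcripts. Python 3.11.15, numpy 2.4.6, scipy 1.17.1 and pandas 2.3.3 were used.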

Additional observations from a re-analysis of the deposited data

How the results depend on the processing

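With 1 library per group, all calls rest on counting error. No paired analysis was possible because each group has only 1 library, and no replicate could be left out. The median of the 10 members (-0.07) was 0.0063 with total counts and 0.044 on the TPM scale. The median of all genes was 0.09 and 0.17 there, so the median of the members lay below that of all genes on both. Members lower beyond counting error numbered 5, and 3 on the TPM scale, where 18.7% of all genes were lower and 51.0% higher. Members higher beyond counting error numbered 2, and 3 with total counts (KLF7 added), 0 with total counts without mitochondrial genes and 4 on the TPM scale. Of these 4, KLF13 rests mostly on a transcript with 14.29 against 6.40 expected counts. At least 2-fold lower was no member in the scaled counts and 1 (KLF2) on the TPM scale, and at a fold of 1.5 the count was 1 (KLF2). For the latter 2 settings no share of all genes is given here. TMM factors and a prior count of 5 changed no call or direction of a member. KLF9, with 28 and 23 counts, is limited by depth.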
